A study of Mus musculus with 14 samples.

Results

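The genes described here are 56 WNT ligands, receptors and inhibitors of the mouse, chosen by gene symbol among the 47729 genes of the deposited count tables. They comprise 19 WNT ligands, 10 Frizzled receptors, the 2 co-receptors Lrp5 and Lrp6, 3 LGR receptors, 5 R-spondin entries, 10 secreted inhibitors, 5 inhibitors that act inside the cell or at its membrane, and the transcription factors Lef1 and Tcf7. The R-spondin entries include Rspo4os, an antisense transcript that the symbol rule also matched. All samples came from sorted back skin cells of female mice, whose strain the labels write as C57B8 in one field and C57B6 in another. Aged mice were 24 months old and young mice were 2 months old, with no treatment or genetic change in the labels. The epidermal stem cells (EpdSC) carried Sca1 without CD34, the hair follicle stem cells (HFSC) carried CD34 without Sca1, and both gates were bright for integrin α6 and depleted of lineage markers. RNA was sequenced from 2 libraries each of aged EpdSC, young EpdSC, aged HFSC and young HFSC. Open chromatin (ATAC-seq) was profiled in 1 library of each of those 4 groups, and single-cell RNA (10x) in 1 aged and 1 young library of lineage-depleted, integrin α6-positive cells. The labels do not say whether the 2 libraries of a group came from separate animals, and the p-values then reflect spread that may be technical.

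WNT ligands are lipid-modified secreted proteins that bind a Frizzled receptor together with Lrp5 or Lrp6, which stabilises β-catenin so that it can act with LEF and TCF factors on transcription. R-spondins bind LGR receptors and spare Frizzled from the membrane ubiquitin ligases Znrf3 and Rnf43, while SFRP proteins and Wif1 bind the ligands in the extracellular space and several Dickkopf proteins block the co-receptors. In skin, basal epidermal cells make WNT ligands and respond to them, and activation of the pathway in the hair follicle accompanies the start of a new hair cycle.

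The RNA libraries held 25126808 to 35905505 counts, the ATAC libraries 8243611 to 37322834, and the aged HFSC ATAC library was the shallowest of the 4. The sort labels were checked against marker genes. Cd34 had 0.588 and 1.81 CPM (counts scaled to a common library total of 1e6) in young EpdSC, against 1807 and 1715 CPM in young HFSC, and at both ages 5 of 6 bulge markers were lower in EpdSC. The summed interfollicular basal markers (6 genes) ranged over 14199 to 20598 CPM in EpdSC, against 6216 to 9457 CPM in HFSC. In bulk RNA, fewer cells of a type and less RNA per cell cannot be told apart.

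Members differed between the sorts by role. Most expressed ligands, Rspo3 and Fzd10 were higher in EpdSC, while 7 other Frizzled receptors, Lgr5 and the secreted inhibitors Sfrp1, Dkk3 and Wif1 were higher in HFSC. In young mice 33 of the 49 members tested passed edgeR's quasi-likelihood test at an adjusted p below 0.05, 17 higher and 16 lower in EpdSC than in HFSC. The share over all 21464 genes tested was 26.1%, with 13.0% higher and 13.1% lower. The members' median log2 fold change was -0.35, beside -0.06 over all genes. At least 1 CPM on average was reached by 33 members in aged EpdSC, 34 in young EpdSC, 39 in aged HFSC and 34 in young HFSC. The 7 members that failed the filter on low counts and were not tested were Dkk1, Dkk4, Rspo2, Rspo4os, Sfrp4, Sfrp5 and Wnt8a. The tested members Dkk2, Notum, Rspo1, Rspo4, Wnt1, Wnt2, Wnt8b and Wnt9b also stayed below a mean of 1 CPM in all 4 groups.

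**Figure D1:**
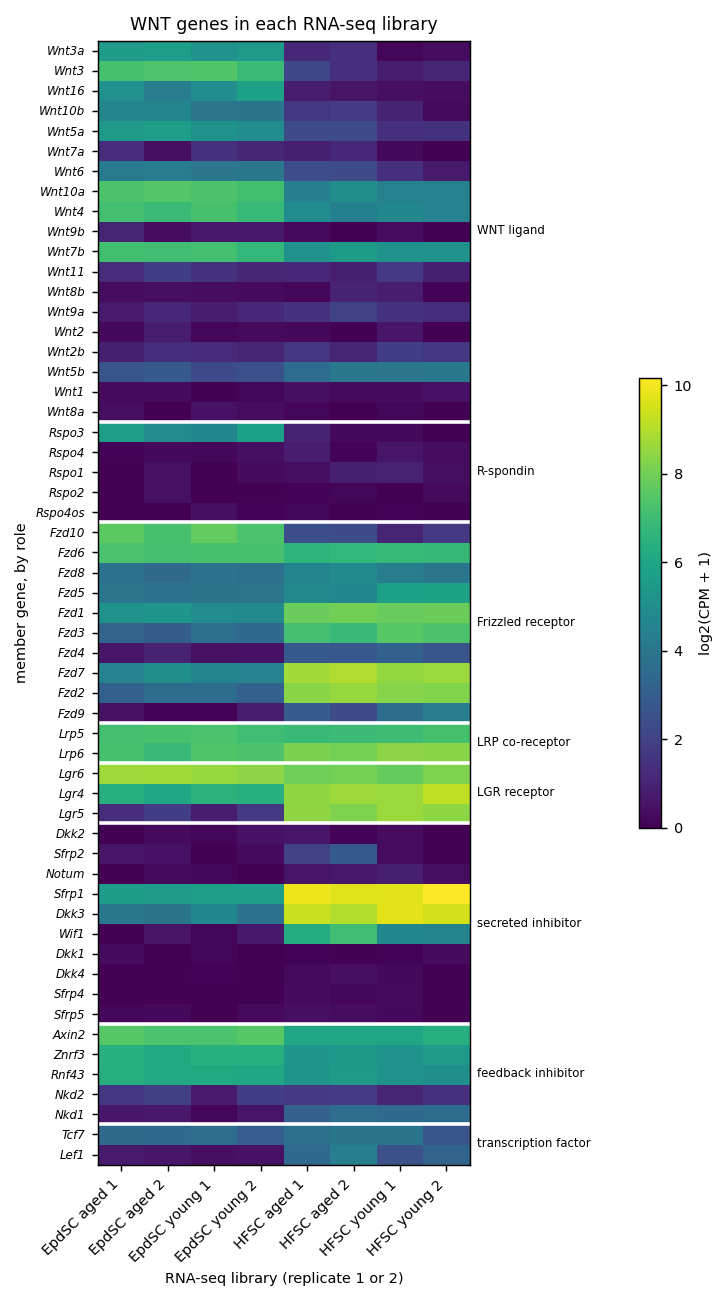
Expression of the 56 members, grouped by role (rows), in the 8 RNA libraries (columns), as log2(CPM + 1) on the colour scale. The upper ligand rows are brighter in the EpdSC columns and most Frizzled rows are brighter in the HFSC columns; transcript length is not accounted for, so levels compare along a row only.

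Among the 18 ligands tested, 10 were higher and 1 was lower in EpdSC than in HFSC of young mice. Wnt3a, a ligand of the β-catenin branch, had 35.6 and 43.7 CPM in young EpdSC, against 0.0999 and 0.275 CPM in young HFSC. Its log2 fold change was 7.74 (SE 0.34, adjusted p = 3.46e-08) by edgeR, as for all adjusted p-values in the bulk RNA comparisons. Wnt3, a second β-catenin branch ligand, had 167 and 122 CPM in young EpdSC, against 0.766 and 1.10 CPM in young HFSC, a log2 fold change of 7.28 (SE 0.37, adjusted p = 8.01e-08). Wnt16, a ligand also made in bone, had 31.0 and 55.1 CPM in young EpdSC, against 0.333 and 0.275 CPM in young HFSC, and differed by 7.12 (SE 0.47, adjusted p = 6.04e-07) on the log2 scale. For each of these 3 ligands the young EpdSC libraries stood far above the young HFSC libraries, which were near 1 CPM or lower. Wnt5a, which mostly signals without β-catenin, had 36.6 and 31.1 CPM in young EpdSC, against 1.60 and 1.77 CPM in young HFSC, a log2 fold change of 4.33 (SE 0.22, adjusted p = 7.8e-08). Wnt10b had 14.8 and 14.5 CPM in young EpdSC, against 1.03 and 0.197 CPM in young HFSC, and Wnt6 had 15.3 and 15.9 CPM in young EpdSC, against 1.66 and 0.669 CPM in young HFSC. Their log2 fold changes were 4.52 (SE 0.45, adjusted p = 1.65e-05) and 3.71 (SE 0.35, adjusted p = 9.26e-06). Neither gene's libraries overlapped between the sorts.

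A smaller difference was found for ligands that HFSC also expressed well above 10 CPM. Wnt10a, whose human gene is mutated in forms of ectodermal dysplasia, had 159 and 136 CPM in young EpdSC, against 20.8 and 20.8 CPM in young HFSC, a log2 fold change of 2.82 (SE 0.22, adjusted p = 2.21e-06). Wnt4 had 148 and 111 CPM in young EpdSC, against 25.8 and 21.5 CPM in young HFSC, and Wnt7b had 138 and 104 CPM in young EpdSC, against 36.4 and 36.4 CPM in young HFSC. These differed by 2.45 (SE 0.22, adjusted p = 8.17e-06) and 1.74 (SE 0.18, adjusted p = 2.44e-05) on the log2 scale, again with no overlap of libraries. Wnt7a, a relative of Wnt7b, had 1.76 and 1.15 CPM in young EpdSC, against 0.166 and 0 CPM in young HFSC, with a log2 fold change of 4.00 (SE 1.09, adjusted p = 0.0183). That call rested on few counts, and the adjusted p became 0.0619 without the first young EpdSC library and 0.0778 without the second young HFSC library. Wnt5b was the single ligand called higher in HFSC, with 3.88 and 4.54 CPM in young EpdSC, against 15.2 and 16.3 CPM in young HFSC and a log2 fold change of -1.90 (SE 0.26, adjusted p = 0.000178). Its paralog Wnt5a ran in the opposite direction. Wnt2b, Wnt9a and Wnt11 had young means of 0.976 to 1.46 CPM in EpdSC, against 1.49 to 2.37 CPM in HFSC, and did not pass the test. The annotated spans of Wnt3 and Wnt9b overlap on chromosome 11. Wnt2b, Wnt5b, Fzd4, Lgr5 and Tcf7 overlap other protein-coding genes, and Wnt6, Wnt7a, Wnt7b, Wnt9a, Wnt10a, Wnt11, Rspo1, Fzd3, Fzd6, Lrp5, Lrp6, Rnf43 and Nkd2 overlap non-coding RNAs or pseudogenes only. Reads cannot be assigned between such overlapping genes if strand was not used in counting.

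The 250 bases before the annotated start are shown for 6 of the members whose RNA and promoter accessibility were both higher in young EpdSC. Among such members within the 36 genes found in the promoter table, these had the largest RNA fold change, that of Wnt7a from few counts. The sequences are from RefSeq on GRCm38.p6, given 5′ to 3′ on the gene's strand, with CpG dinucleotides in capitals. Wnt3a lies at chr11:59290752-59291001 on the minus strand, Wnt3 at chr11:103773925-103774174 on the plus strand, Wnt16 at chr6:22287977-22288226 on the plus strand, Fzd10 at chr5:128600856-128601105 on the plus strand, Wnt10b at chr15:98778151-98778400 on the minus strand and Wnt7a at chr6:91411354-91411603 on the minus strand.
Wnt3a: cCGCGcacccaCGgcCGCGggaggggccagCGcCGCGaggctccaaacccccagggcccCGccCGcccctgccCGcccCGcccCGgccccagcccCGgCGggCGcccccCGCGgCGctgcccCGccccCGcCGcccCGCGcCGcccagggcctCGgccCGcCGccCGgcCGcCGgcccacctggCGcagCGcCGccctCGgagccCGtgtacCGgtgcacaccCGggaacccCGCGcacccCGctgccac
Wnt3: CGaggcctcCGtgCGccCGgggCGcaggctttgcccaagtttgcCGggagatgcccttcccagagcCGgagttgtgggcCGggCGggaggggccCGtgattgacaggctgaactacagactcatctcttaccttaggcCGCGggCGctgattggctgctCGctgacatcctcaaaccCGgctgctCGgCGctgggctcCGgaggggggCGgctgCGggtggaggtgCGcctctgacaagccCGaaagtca
Wnt16: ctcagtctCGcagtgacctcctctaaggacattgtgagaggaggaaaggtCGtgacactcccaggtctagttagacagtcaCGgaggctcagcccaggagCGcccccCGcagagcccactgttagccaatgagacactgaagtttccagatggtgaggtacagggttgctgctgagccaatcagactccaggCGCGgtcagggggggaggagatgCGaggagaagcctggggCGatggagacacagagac
Fzd10: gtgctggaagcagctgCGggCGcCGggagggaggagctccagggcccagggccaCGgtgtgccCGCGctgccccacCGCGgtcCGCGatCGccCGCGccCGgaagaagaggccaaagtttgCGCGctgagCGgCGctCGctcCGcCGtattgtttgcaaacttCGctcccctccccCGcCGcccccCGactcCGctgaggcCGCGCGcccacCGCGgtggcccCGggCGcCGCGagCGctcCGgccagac
Wnt10b: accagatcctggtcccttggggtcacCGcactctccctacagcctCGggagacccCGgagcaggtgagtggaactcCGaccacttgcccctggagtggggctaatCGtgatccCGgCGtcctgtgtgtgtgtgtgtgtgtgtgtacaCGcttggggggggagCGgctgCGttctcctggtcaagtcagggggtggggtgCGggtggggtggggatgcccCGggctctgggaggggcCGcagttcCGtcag
Wnt7a: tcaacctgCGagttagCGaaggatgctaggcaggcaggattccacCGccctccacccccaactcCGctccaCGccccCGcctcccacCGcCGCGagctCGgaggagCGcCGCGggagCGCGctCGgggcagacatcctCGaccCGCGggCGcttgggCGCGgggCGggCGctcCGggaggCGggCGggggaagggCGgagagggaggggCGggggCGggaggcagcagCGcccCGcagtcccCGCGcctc

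These 6 stretches held 9 (Wnt16) to 41 (Wnt3a) CpG dinucleotides, with a GC content of 59.2% in Wnt16 to 87.6% in Wnt3a. Over the promoter table, WNT ligand promoters had a median GC content of 71.2% and 22.5 CpG per 250 bases, members as a whole 65.8% and 16.5, and all promoters 52.4% and 6. CpG-rich promoters were thus shared by ligands and not limited to the 6 shown. The LEF/TCF recognition letters CTTTGAA or CTTTGAT were searched on both strands of 300 bases around each start, and the 2 motifs do not overlap each other. They occurred in 3 of 44 member promoters (6.82%), in Dkk1, Wnt5b and Wnt11, against 2842 of 32851 promoters in all (8.65%).

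Of the R-spondins, only Rspo3 was called different between the sorts. Rspo3, which amplifies WNT signals through LGR receptors, had 25.3 and 52.2 CPM in young EpdSC, against 0.166 and 0 CPM in young HFSC. Its log2 fold change of 8.69 (SE 0.80, adjusted p = 8.68e-06) was the largest among members in young mice. The young EpdSC libraries spread widely for Rspo3, yet both lay far above the HFSC libraries.

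Nearly every Frizzled receptor differed, with 2 of 10 higher and 7 lower in EpdSC of young mice. Fzd10 had 210.2 and 156 CPM in young EpdSC, against 1.07 and 2.20 CPM in young HFSC, a log2 fold change of 6.83 (SE 0.32, adjusted p = 5.14e-08). Fzd2 had 11.1 and 7.80 CPM in young EpdSC, against 316 and 304 CPM in young HFSC, a log2 fold change of -5.04 (SE 0.23, adjusted p = 4.9e-08). Fzd7 had 22.9 and 21.5 CPM in young EpdSC, against 368 and 393 CPM in young HFSC, a log2 fold change of -4.10 (SE 0.20, adjusted p = 6.55e-08). Fzd10 was thus high in the sort where Fzd2 and Fzd7 were low, with no overlap of libraries for any of these receptors. Fzd1 had 29.3 and 27.7 CPM in young EpdSC, against 220.4 and 238 CPM in young HFSC and differed by -3.01 (SE 0.15, adjusted p = 6.71e-08) on the log2 scale. Fzd3, which with Fzd6 is known for tissue polarity in mice, had 11.6 and 10.1 CPM in young EpdSC, against 186 and 159 CPM in young HFSC, a log2 fold change of -3.99 (SE 0.18, adjusted p = 5.03e-08). Fzd4, which also binds Norrin, had 0.382 and 0.395 CPM in young EpdSC, against 7.92 and 5.39 CPM in young HFSC, and Fzd9 had 0.0588 and 0.691 CPM in young EpdSC, against 11.1 and 18.5 CPM in young HFSC. Their log2 fold changes were -4.09 (SE 0.44, adjusted p = 2.92e-05) and -5.32 (SE 0.75, adjusted p = 0.000251), from low levels in EpdSC. Fzd5 differed less, with a log2 fold change of -1.93 (SE 0.16, adjusted p = 4.18e-06). Fzd6, required for orderly hair orientation in mice, was the most even of the called receptors, with 148 and 147 CPM in young EpdSC, against 112 and 109.5 CPM in young HFSC. Its log2 fold change of 0.42 (SE 0.13, adjusted p = 0.035) was lost without the first aged EpdSC library or any 1 of the 4 young libraries, at adjusted p-values of 0.0735 to 0.172.

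The co-receptor Lrp5 did not pass the test (0.06, SE 0.14, adjusted p = 0.836), while Lrp6 was lower in EpdSC with a log2 fold change of -1.02 (SE 0.15, adjusted p = 0.000284). Lgr5, which marks cycling hair follicle stem cells in mice, had 0.765 and 2.27 CPM in young EpdSC, against 398 and 343 CPM in young HFSC. The log2 fold change of -7.95 (SE 0.42, adjusted p = 1.21e-07) was the largest fall among members. Lgr4 had 91.2 and 81.8 CPM in young EpdSC, against 398 and 591 CPM in young HFSC, a log2 fold change of -2.51 (SE 0.21, adjusted p = 3.36e-06). Lgr6, known from the upper follicle and the interfollicular epidermis, ran the other way with 387 and 340.3 CPM in young EpdSC, against 214 and 297 CPM in young HFSC. That difference, 0.51 (SE 0.17, adjusted p = 0.0438), was not called without the first young HFSC library, the first aged EpdSC library or either young EpdSC library, at adjusted p-values of 0.0508 to 0.248. The 3 LGR receptors thus took different positions, with Lgr5 the most restricted to HFSC.

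Secreted inhibitors that passed the test were higher in HFSC. Of the 6 tested, 3 were lower in EpdSC of young mice and 0 were higher. Sfrp1, which binds ligands outside the cell, had 51.4 and 51.1 CPM in young EpdSC, against 839 and 1152 CPM in young HFSC, a log2 fold change of -4.28 (SE 0.20, adjusted p = 4.9e-08). Dkk3, a divergent Dickkopf family member, had 26.0 and 13.7 CPM in young EpdSC, against 866 and 724 CPM in young HFSC, a log2 fold change of -5.32 (SE 0.29, adjusted p = 1.49e-07). Wif1, a ligand-binding inhibitor, had 0.118 and 0.625 CPM in young EpdSC, against 26.1 and 23.8 CPM in young HFSC, a log2 fold change of -6.10 (SE 0.61, adjusted p = 1.7e-05). All 3 separated the sorts with no overlap. Sfrp2, a relative of Sfrp1, was at or near 0 in young cells of both sorts, with 0.0294 and 0.230 CPM in young EpdSC, against 0.266 and 0 CPM in young HFSC.

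Inhibitors that the pathway itself induces did not follow the secreted ones. Axin2, a scaffold of the complex that degrades β-catenin and a widely used readout of the pathway, had 157 and 184 CPM in young EpdSC, against 64.1 and 82.8 CPM in young HFSC, a log2 fold change of 1.22 (SE 0.17, adjusted p = 0.000188). Znrf3 had 86.2 and 83.6 CPM in young EpdSC, against 36.2 and 44.6 CPM in young HFSC, and Rnf43 had 70.5 and 67.5 CPM in young EpdSC, against 35.0 and 32.2 CPM in young HFSC. These ligases were higher in EpdSC by 1.07 (SE 0.16, adjusted p = 0.000373) and 1.04 (SE 0.15, adjusted p = 0.000337) on the log2 scale. Nkd1, which binds Dishevelled, was the exception among them, with 0.0882 and 0.493 CPM in young EpdSC, against 10.2 and 11.0 CPM in young HFSC and a log2 fold change of -5.20 (SE 0.54, adjusted p = 2.13e-05). Nkd2 did not pass the test (0.23, SE 0.59, adjusted p = 0.836). Of the transcription factors, Lef1 was lower in EpdSC, with 0.324 and 0.395 CPM in young EpdSC, against 4.73 and 8.73 CPM in young HFSC and a log2 fold change of -4.21 (SE 0.47, adjusted p = 4e-05). Tcf7 overlapped between the sorts, with 11.3 and 7.27 CPM in young EpdSC, against 14.4 and 5.47 CPM in young HFSC.

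The same comparison in aged mice set other libraries against each other, within the same fit and with the same estimate of the spread, so it is not independent of the comparison in young mice. There 34 of 49 members were called, 16 higher and 18 lower in EpdSC, against a share of 24.1% over all genes, 12.2% higher and 11.9% lower. The members called at both ages were 32 in number, 16 higher and 16 lower at both, and all 32 kept their sign. Wnt7a was called in young mice only, and Fzd8 and Sfrp2 in aged mice only. Fzd8 had 13.4 and 10.3 CPM in aged EpdSC, against 23.1 and 27.5 CPM in aged HFSC, a log2 fold change of -1.09 (SE 0.21, adjusted p = 0.00276), and Sfrp2 had 0.495 and 0.423 CPM in aged EpdSC, against 3.02 and 6.39 CPM in aged HFSC, a log2 fold change of -3.34 (SE 0.87, adjusted p = 0.0152). The Sfrp2 call was lost without the second aged HFSC library (adjusted p = 0.168) or without either aged EpdSC library (0.0732 and 0.0874). The aged Fzd6 call was lost without the first library of either sort (up to 0.0665), and the aged Wnt5b call without the first aged EpdSC or the second aged HFSC library (up to 0.0637).

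The levels behind the aged comparison again separated the sorts. Rspo3 had 50.9 and 28.9 CPM in aged EpdSC, against 0.972 and 0.165 CPM in aged HFSC, a log2 fold change of 6.13 (SE 0.63, adjusted p = 2.37e-05). Wnt3 had 145 and 163 CPM in aged EpdSC, against 3.62 and 1.61 CPM in aged HFSC, a log2 fold change of 5.88 (SE 0.33, adjusted p = 2.12e-07). Wnt3a had 47.5 and 51.2 CPM in aged EpdSC, against 1.24 and 1.58 CPM in aged HFSC, a log2 fold change of 5.12 (SE 0.26, adjusted p = 1.1e-07). These 3 fold changes were smaller than in young mice, but the change with age did not pass the interaction test reported with the age effects. Wnt16 had 34.3 and 18.9 CPM in aged EpdSC, against 0.771 and 0.461 CPM in aged HFSC (5.42, SE 0.43, adjusted p = 2.7e-06), and Fzd10 had 192 and 147 CPM in aged EpdSC, against 4.46 and 3.98 CPM in aged HFSC (5.33, SE 0.29, adjusted p = 1.6e-07). On the follicle side, Wif1 had 0 and 0.456 CPM in aged EpdSC, against 75.4 and 131 CPM in aged HFSC, a log2 fold change of -8.83 (SE 0.67, adjusted p = 2.05e-06). Lgr5 had 1.42 and 2.67 CPM in aged EpdSC, against 360.5 and 298 CPM in aged HFSC, a log2 fold change of -7.33 (SE 0.41, adjusted p = 2.08e-07). Wif1 thus replaced Lgr5 as the member with the largest fall. Dkk3 had 15.8 and 14.0 CPM in aged EpdSC, against 629 and 506 CPM in aged HFSC (-5.25, SE 0.29, adjusted p = 2.08e-07), Fzd2 had 7.82 and 11.0 CPM in aged EpdSC, against 329 and 386 CPM in aged HFSC (-5.25, SE 0.23, adjusted p = 5.4e-08), and Lef1 had 0.649 and 0.553 CPM in aged EpdSC, against 10.2 and 19.6 CPM in aged HFSC (-4.62, SE 0.46, adjusted p = 1.69e-05).

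Further down the aged ranking, the sorts were again without overlap. Wnt5a had 42.5 and 50.8 CPM in aged EpdSC, against 4.19 and 4.05 CPM in aged HFSC, a log2 fold change of 3.50 (SE 0.20, adjusted p = 2.45e-07). Wnt10b had 24.1 and 23.7 CPM in aged EpdSC, against 2.11 and 2.53 CPM in aged HFSC, a log2 fold change of 3.36 (SE 0.40, adjusted p = 7.38e-05). Wnt10a had 158 and 179 CPM in aged EpdSC, against 19.2 and 31.6 CPM in aged HFSC, a log2 fold change of 2.73 (SE 0.22, adjusted p = 3.05e-06). These ligands kept the epidermal side. Wnt4 had 139 and 120.0 CPM in aged EpdSC, against 30.2 and 19.8 CPM in aged HFSC (2.37, SE 0.22, adjusted p = 1.18e-05), Wnt6 averaged 18.2 ± 0.398 CPM in aged EpdSC (SD, n = 2), against 4.26 and 4.15 CPM in aged HFSC (2.12, SE 0.31, adjusted p = 0.000347), and Wnt7b had 135 and 132 CPM in aged EpdSC, against 34.2 and 45.9 CPM in aged HFSC (1.73, SE 0.18, adjusted p = 2.77e-05). Axin2 had 181 and 153 CPM in aged EpdSC, against 65.5 and 67.9 CPM in aged HFSC, a log2 fold change of 1.33 (SE 0.17, adjusted p = 0.00011).

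The receptors Fzd3, Fzd4, Fzd7 and Fzd9 and the inhibitors Sfrp1 and Nkd1 were again lower in EpdSC in aged mice. Sfrp1 had 47.8 and 43.2 CPM in aged EpdSC, against 971 and 811 CPM in aged HFSC (-4.29, SE 0.20, adjusted p = 6.03e-08), and Fzd7 had 21.9 and 32.1 CPM in aged EpdSC, against 436 and 494 CPM in aged HFSC (-4.10, SE 0.20, adjusted p = 8.13e-08). Fzd3 had 8.32 and 7.03 CPM in aged EpdSC, against 140.1 and 115 CPM in aged HFSC (-4.05, SE 0.19, adjusted p = 6.05e-08). Each of these 3 was lower in both aged EpdSC libraries than in either aged HFSC library. Fzd9 had 0.371 and 0.0651 CPM in aged EpdSC, against 6.57 and 4.21 CPM in aged HFSC (-4.58, SE 0.78, adjusted p = 0.00109), Fzd4 had 0.495 and 0.944 CPM in aged EpdSC, against 6.30 and 5.79 CPM in aged HFSC (-3.07, SE 0.41, adjusted p = 0.000183), and Nkd1 had 0.526 and 0.619 CPM in aged EpdSC, against 7.68 and 11.3 CPM in aged HFSC (-4.04, SE 0.49, adjusted p = 8.99e-05).

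**Figure D2:**
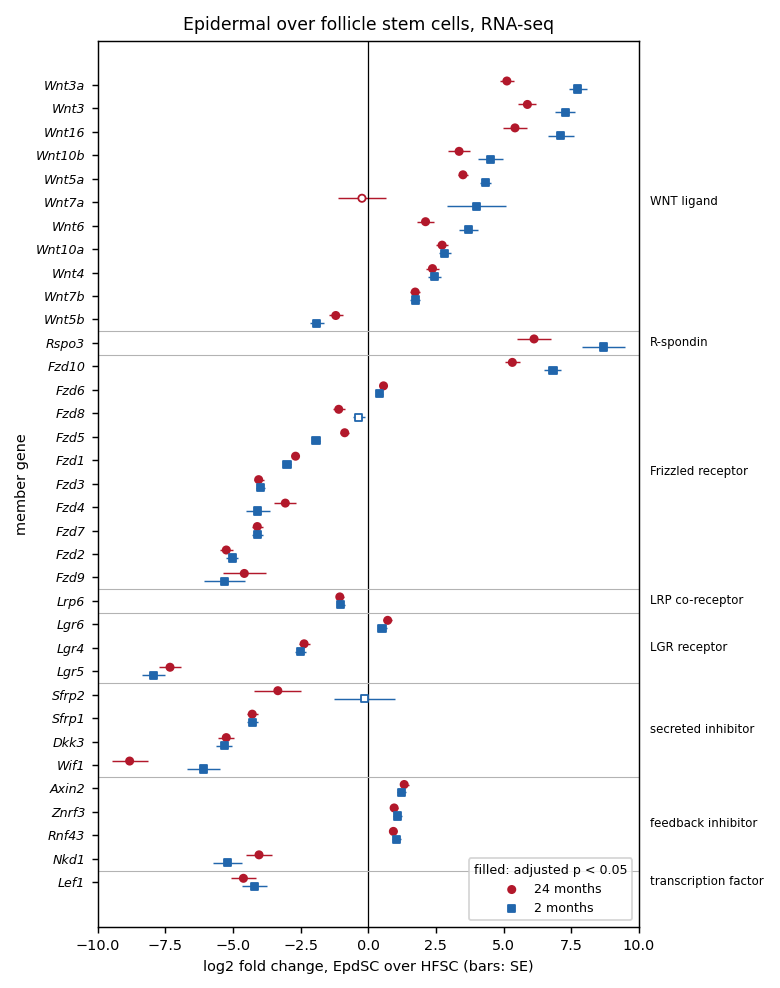
Log2 fold change of EpdSC over HFSC for the members called at either age, by role, with bars of 1 SE from the edgeR fit (2 libraries a group); aged values are circles above young squares, filled where the adjusted p is below 0.05. Ligands lie to the right of 0 except Wnt5b and the uncalled aged value of Wnt7a, and Frizzled receptors to the left except Fzd10 and Fzd6.

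Few members passed the test with age. In aged against young HFSC, 3 of 49 members were called, 2 higher and 1 lower, against 0.368% of all genes tested, 0.294% higher and 0.0745% lower. At an unadjusted p below 0.05 there were 15 of 49, against 7.68% of all genes. DESeq2 called 8 members, 7 higher and 1 lower, and edgeR without the filter on low counts called 13, 11 higher and 2 lower. Over all genes these settings also called more, 359 and 662, against 79 by edgeR as applied here. Wnt3a had 1.24 and 1.58 CPM in aged HFSC, against 0.0999 and 0.275 CPM in young HFSC, a log2 fold change of 2.93 (SE 0.40, adjusted p = 0.0162). Wnt5a had 4.19 and 4.05 CPM in aged HFSC, against 1.60 and 1.77 CPM in young HFSC, a log2 fold change of 1.29 (SE 0.22, adjusted p = 0.035). Both ligands were higher in aged HFSC with no overlap, and both remained far below their levels in EpdSC. Fzd5, a receptor with 26.9 and 25.2 CPM in aged HFSC, against 53.5 and 56.8 CPM in young HFSC, was lower in aged HFSC, with a log2 fold change of -1.08 (SE 0.16, adjusted p = 0.0218). None of the 3 calls held in every fit that left out 1 library, nor in a fit of the 4 HFSC libraries alone, which called 0. Without the second aged HFSC library the adjusted p was 0.0667 for Wnt3a, 0.132 for Wnt5a and 0.152 for Fzd5, with log2 fold changes of 2.75, 1.32 and -1.04. The Wnt3a call was also lost without the first young HFSC library (adjusted p = 0.0532), and the Wnt5a call without any 1 of the HFSC libraries (0.0573 to 0.132). The count of called members fell to 1 without the second aged HFSC library, and was 7 without either young EpdSC library.

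Several other members differed between aged and young HFSC without passing edgeR's test as applied here, though some passed under other settings. Wnt6 had 4.26 and 4.15 CPM in aged HFSC, against 1.66 and 0.669 CPM in young HFSC, a log2 fold change of 1.82 (SE 0.34, adjusted p = 0.0524). Wif1 had 75.4 and 131 CPM in aged HFSC, against 26.1 and 23.8 CPM in young HFSC, a log2 fold change of 2.05 (SE 0.43, adjusted p = 0.0888). Sfrp2 had 3.02 and 6.39 CPM in aged HFSC, against 0.266 and 0 CPM in young HFSC, a log2 fold change of 5.03 (SE 1.00, adjusted p = 0.0646). For these 3 genes the aged and young libraries did not overlap, though with 2 libraries a group that can readily arise without a difference. The share of all genes without overlap was not computed. Wnt6 and Sfrp2 passed by DESeq2, all 3 passed without the filter on low counts, and each passed in some of the edgeR fits that left out 1 library. Over all alternatives the adjusted p ranged over 2.72e-06 to 0.309 for Wnt6, 1.52e-19 to 0.933 for Wif1 and 7.52e-08 to 0.526 for Sfrp2. Fzd10, Wnt10b, Wnt3, Wnt7a and Lef1 had edgeR adjusted p-values of 0.105, 0.152, 0.167, 0.311 and 0.348. Each was called higher in aged HFSC without the filter on low counts. DESeq2 called Fzd10, Wnt10b and Wnt3 (adjusted p = 0.000294, 0.00118 and 0.00172). Fzd9 went the other way, averaging 5.39 CPM in aged and 14.8 CPM in young HFSC without overlap. Without the filter, edgeR called Fzd9 lower (log2 fold change -1.45, adjusted p = 0.00414).

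Summed markers of several other cell types were also higher in aged HFSC. Over all marker lists, 3 single markers passed edgeR's test, all higher in aged HFSC: the sebaceous gene Far2 (adjusted p = 0.0264), the inner bulge marker Timp3 (adjusted p = 0.00706) and the smooth muscle gene Acta2 (adjusted p = 0.0472). The 5 suprabasal markers summed to 314 and 391 CPM in aged HFSC, against 137 and 221 CPM in young HFSC. The 6 sebaceous gland markers summed to 365 and 455 CPM in aged HFSC, against 161 and 190.2 CPM in young HFSC. The 4 dermal papilla markers summed to 13.9 and 9.58 CPM in aged HFSC, against 4.53 and 2.75 CPM in young HFSC. Crabp1 alone gave 11.8 and 8.26 CPM of the aged sums, against 2.50 and 2.08 CPM of the young sums. The rise was thus largely that of 1 gene. The 6 melanocyte markers summed to 30.3 and 32.9 CPM in aged HFSC, against 16.7 and 19.4 CPM in young HFSC. The 6 interfollicular basal markers summed to 6692 and 9457 CPM in aged HFSC, against 6224 and 6216 CPM in young HFSC, so the second aged library stood above the other 3. The 5 upper follicle markers overlapped between the ages, with 1071 and 1821 CPM in aged HFSC, against 839.8 and 1074 CPM in young HFSC. The 4 follicle junction markers summed to 264 and 290.4 CPM in aged HFSC, against 209 and 221 CPM in young HFSC. The 5 pericyte and smooth muscle markers summed to 6.77 and 17.7 CPM in aged HFSC, against 4.36 and 5.19 CPM in young HFSC. Acta2 alone gave 11.7 CPM of the sum in the second aged library. The 4 hair germ markers summed to 312 and 287 CPM in aged HFSC, against 275 and 254 CPM in young HFSC. No marker of these lists was at 0 in either aged HFSC library. The 5 Merkel cell markers summed to 5.23 and 8.95 CPM in aged HFSC, against 4.19 and 1.93 CPM in young HFSC, with 1 marker at 0 in the second aged library. The 4 inner bulge markers overlapped between the ages. Sums of the fibroblast, proliferating, Langerhans and myeloid, T cell and endothelial markers also overlapped. The 4 Schwann cell markers were lower, with 22.2 and 22.5 CPM in aged HFSC, against 34.3 and 24.4 CPM in young HFSC. Ly6a, which encodes the Sca1 used to sort EpdSC, had 1.51 and 1.97 CPM in aged HFSC, against 0.399 and 0.629 CPM in young HFSC. The 6 bulge markers overlapped between the ages, with 16720.3 and 17419 CPM in aged HFSC, against 16289.7 and 19055 CPM in young HFSC. A sum can follow 1 marker and need not reflect a cell type. The part of other cell types in the age differences of Wnt3a, Wnt5a, Fzd5 and the uncalled members was not tested.

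In aged against young EpdSC, edgeR called 0 of 49 members, against 0.0839% of all genes (0.0559% higher, 0.0280% lower), and 3 members had an unadjusted p below 0.05, against 4.46% of all genes. DESeq2 also called 0. The 4 smallest p-values belonged to Fzd3, Fzd1, Wnt5a and Wnt16. Fzd3 had 8.32 and 7.03 CPM in aged EpdSC, against 11.6 and 10.1 CPM in young EpdSC (-0.50, SE 0.17, adjusted p = 0.921), and Fzd1 had 35.6 and 39.3 CPM in aged EpdSC, against 29.3 and 27.7 CPM in young EpdSC (0.39, SE 0.14, adjusted p = 0.944). Wnt5a had 42.5 and 50.8 CPM in aged EpdSC, against 36.6 and 31.1 CPM in young EpdSC (0.46, SE 0.18, adjusted p = 1), and Wnt16 had 34.3 and 18.9 CPM in aged EpdSC, against 31.0 and 55.1 CPM in young EpdSC (-0.69, SE 0.32, adjusted p = 1). The aged and young libraries of Wnt16 overlapped, and those of Fzd3, Fzd1 and Wnt5a did not, which with so few libraries does not show a difference.

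Whether the age effect differed between HFSC and EpdSC was tested directly with an interaction term. By edgeR 0 of 49 members passed, against 0.00466% of all genes, and 11 had an unadjusted p below 0.05, against 4.57% of all genes. DESeq2 called 3, Fzd10, Fzd5 and Wnt3a, and 87 over all genes, against 1 over all genes by edgeR. The smallest p-values belonged to Wnt3a, with a difference of age effects (HFSC minus EpdSC) of 2.62 (SE 0.46, adjusted p = 0.149), then Fzd5 with -1.06 (SE 0.23, adjusted p = 0.277), Fzd10 with 1.50 (SE 0.38, adjusted p = 0.477) and Wnt6 with 1.60 (SE 0.45, adjusted p = 0.595). The age calls in HFSC are therefore not shown to be particular to HFSC.

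**Figure D3:**
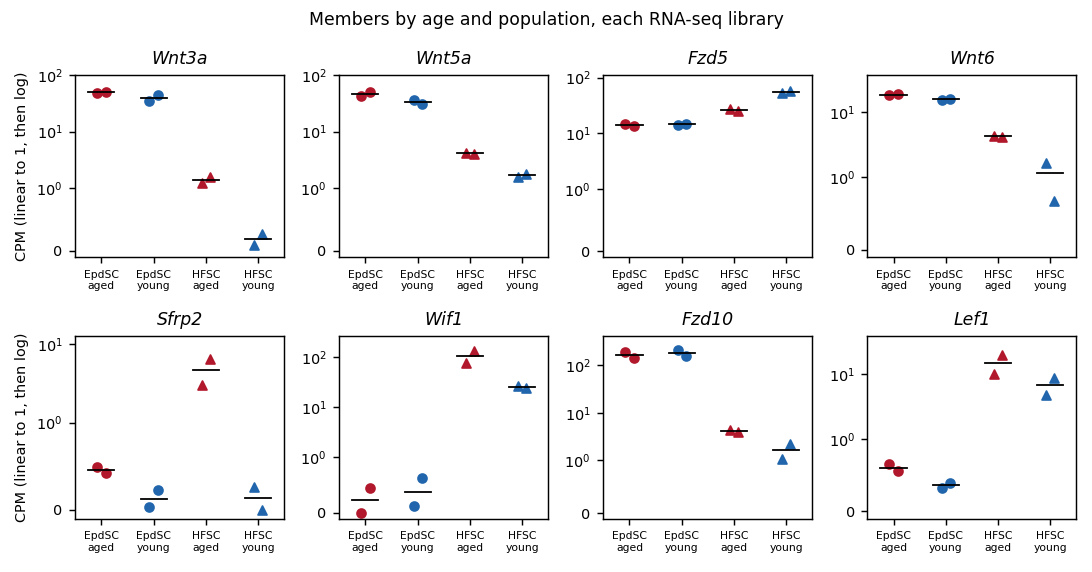
CPM of selected members in each RNA library, on an axis that is linear up to 1 CPM and logarithmic above it, for Wnt3a, Wnt5a, Fzd5, Wnt6, Sfrp2, Wif1, Fzd10 and Lef1; points are the 2 libraries of each group and lines their means. Wnt3a and Wnt5a are higher and Fzd5 is lower in aged than in young HFSC.

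Genes of the pathway outside the 56 were also divided between the sorts. Of 57 such genes tested, from β-catenin and the degradation complex to planar polarity proteins, 10 were higher and 18 lower in EpdSC of young mice, against 13.0% and 13.1% of all genes. In aged mice 11 were higher and 18 lower, against 12.2% and 11.9% of all genes. Trabd2b, a membrane protease that inactivates WNT ligands, had 3.38 and 1.84 CPM in young EpdSC, against 207 and 161 CPM in young HFSC, a log2 fold change of -6.13 (SE 0.31, adjusted p = 8.08e-08). Apcdd1, a membrane inhibitor of the pathway, had 175 and 239 CPM in young EpdSC, against 10.2 and 11.0 CPM in young HFSC, a log2 fold change of 4.29 (SE 0.28, adjusted p = 5.8e-07). These inhibitors differed in opposite directions. Tcf7l2, a TCF factor, was lower in EpdSC with a log2 fold change of -1.82 (SE 0.18, adjusted p = 1.69e-05), as was Apc2, a relative of the tumour suppressor Apc, with -2.19 (SE 0.24, adjusted p = 3.22e-05). Prickle1, a planar polarity protein, was higher by 3.26 (SE 0.34, adjusted p = 2.27e-05) and the corepressor Tle3 by 1.34 (SE 0.15, adjusted p = 3.74e-05). Of 9 further genes tested that are used as readouts of the pathway, 5 were higher and 1 lower in young EpdSC, against the same 13.0% and 13.1%. Tnfrsf19 had 722 and 629.9 CPM in young EpdSC, against 4.73 and 10.5 CPM in young HFSC, a log2 fold change of 6.48 (SE 0.33, adjusted p = 8.24e-08), and Ascl2 differed by 4.53 (SE 0.33, adjusted p = 1.22e-06). Bambi, a decoy receptor for TGF-β family ligands, was the lower one, with -3.93 (SE 0.31, adjusted p = 2.57e-06). No gene of either list was called by edgeR in the age comparisons or the interaction. At an unadjusted p below 0.05 the 57-gene list had 5 in HFSC, 4 in EpdSC and 4 in the interaction, and the readouts had 3, 0 and 2. The shares over all genes were 7.68%, 4.46% and 4.57%.

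Open chromatin was then compared at the members' promoters, taken as the 500-base windows within 1000 bases of the gene start. With 1 library a group no test was possible, and a promoter was counted when its normalised ratio passed 2-fold. In young mice 18 of 55 measured members passed, 15 higher and 3 lower in EpdSC than in HFSC, against 14.9% of all promoters, of which 9.65% were higher and 5.28% lower. The median log2 ratio was 0.34 over members and 0.09 over all promoters. Ligands made up 12 of the 15. The Wnt16 promoter had 733 counts in the young EpdSC library and 48 in the young HFSC library, a log2 ratio of 3.41 (interval 3.00 to 3.87), where intervals are exact binomial at 95% and cover counting error only. The Wnt10b promoter had 308 counts in the young EpdSC library and 20 in the young HFSC library, a log2 ratio of 3.40 (interval 2.78 to 4.16). The Wnt3 promoter had 470 counts in the young EpdSC library and 34 in the young HFSC library, a log2 ratio of 3.26 (interval 2.77 to 3.82). The sequences of these 3 promoters are among those printed above, which were chosen for higher RNA and a more open promoter in young EpdSC. The Rspo3, Wnt3a and Fzd10 promoters had log2 ratios of 2.63 (interval 2.06 to 3.32), 2.40 (interval 2.05 to 2.79) and 2.05 (interval 1.79 to 2.33). Lower in EpdSC were Lgr5 with 100 counts in the young EpdSC library and 363 in the young HFSC library, a log2 ratio of -2.37 (interval -2.71 to -2.05), Dkk3 with -2.00 (interval -2.50 to -1.54) and Sfrp4 with -1.55 (interval -2.28 to -0.88). None of these 3, nor Rspo3, has a start in the promoter table, so the more open end of the gene was used for each. With listed starts only, which 36 members had, 10 members passed, 10 higher and 0 lower.

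Promoters were then taken separately for members with higher and lower RNA. Of the 17 members with higher RNA in young EpdSC, 11 had a promoter past 2-fold more open and 0 past 2-fold less open, with a median log2 ratio of 1.23. Among these 11, Rspo3, Wnt5a, Wnt10a and Wnt7b had no listed start. Their window was the more open gene end, which is not always the gene start, and the median was the value of Wnt10a. Of the 16 members with lower RNA in young EpdSC, 2 were past 2-fold less open and 14 were within 2-fold, with a median of -0.31. The 2 were Lgr5 and Dkk3, also without a listed start, as were Fzd2 and Sfrp1 given below. Of the 16 members that the RNA test did not call, 4 were past 2-fold more open and 0 past 2-fold less open, with a median of 0.43. Most promoters of members with low RNA in EpdSC thus differed less than 2-fold between the sorts, as did most promoters of all genes, of which 14.9% passed 2-fold. Shares among all genes with higher or lower RNA were not computed. The Fzd2 promoter had 578 counts in the young EpdSC library and 499 in the young HFSC library, a log2 ratio of -0.30 (interval -0.48 to -0.12). The Fzd7 and Sfrp1 promoters had ratios of -0.35 (interval -0.48 to -0.21) and -0.32 (interval -0.47 to -0.16), and the Wif1 promoter -0.13 (interval -0.39 to 0.14). The Lef1 promoter was more open in EpdSC by 0.52 (interval 0.17 to 0.88) while its RNA was lower there.

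In aged mice 26 of 53 members passed, 23 higher and 3 lower in EpdSC, against 49.6% of all promoters, 44.9% higher and 4.62% lower. There the median over all promoters was itself 0.94, beside 0.91 over members, and the aged EpdSC library held 22933001 counts, against 8243611 in the aged HFSC library. With the median of all promoters set to 0, 14 members passed, 9 higher and 5 lower. Between aged and young HFSC, 15 of 51 members passed, 15 lower in aged HFSC, against 26.5% of all promoters, 3.90% higher and 22.6% lower, and both medians were -0.71. With the median set to 0, 7 passed, 6 higher and 1 lower. Without that centring, the members' shares in these comparisons were near those of all promoters. No share over all promoters is given for the centred counts, here or below, so their directions are a description. The Wnt3a promoter had 13 counts in the aged HFSC library and 70 in the young HFSC library, a log2 ratio of -0.72 (interval -1.74 to 0.10), about the same as the median. Between aged and young EpdSC, 1 of 55 members passed, Dkk1, with 35 counts in the aged EpdSC library and 27 in the young EpdSC library, against 4.50% of all promoters, 1.69% higher and 2.81% lower. With the median set to 0, 1 member passed in the other direction.

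**Figure D4:**
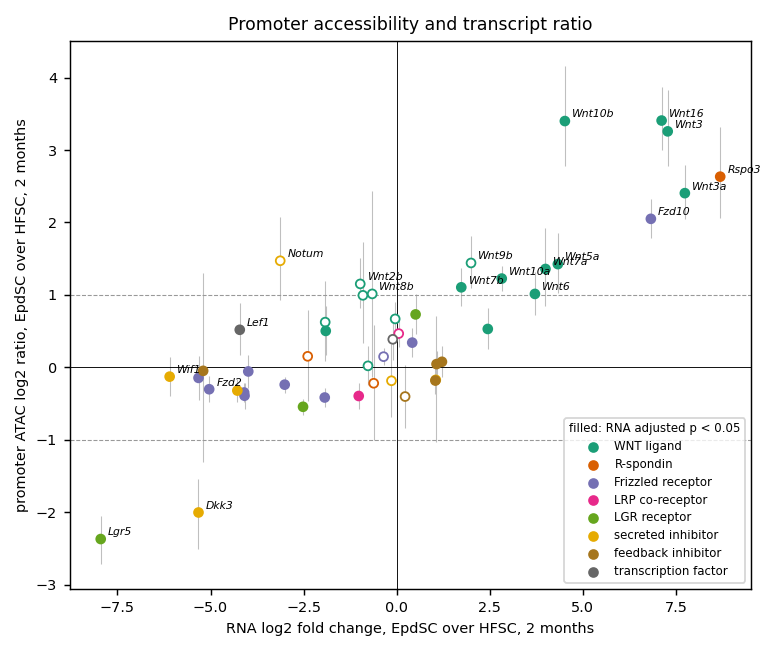
Log2 ratio of promoter accessibility (vertical, 1 library a group) against log2 fold change of RNA (horizontal, 2 libraries a group), EpdSC over HFSC of young mice, 1 point per tested member, coloured by role, with grey 95% counting intervals and filled points for members called by RNA. Ligands at the upper right are higher in both, and most Frizzled receptors lie at the left near 0 on the vertical axis.

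Single cells gave the members' levels within cell classes. Clusters were built without the members, and 4469 aged cells (median 2271 UMIs) and 4038 young cells (median 3923 UMIs) were kept, with 33 barcodes shared between the libraries. The bulge-like cluster held 317 aged and 335 young cells, and the interfollicular basal-like cluster 173 aged and 1296 young cells. Of the 6 markers behind each name, 5 were over 2-fold above the other cells in the bulge-like cluster and 1 in the basal-like cluster, so the basal-like name is the weaker. A cluster led by Gpnmb, Thy1 and Serpinb7 stayed unnamed and held 1810 aged and 68 young cells. With 1 library per age, age and library cannot be told apart. In young cells 20 of 28 members with at least 20 UMIs passed 2-fold, 10 higher and 10 lower in bulge-like cells, against 21.7% of all genes, 12.4% higher and 9.24% lower. Members with few UMIs entered only when 1 class was high, so this share is a description. Of the 11 members measured here whose bulk RNA was higher in HFSC, 10 were past 2-fold higher in bulge-like cells and 0 lower. Of the 15 whose bulk RNA was higher in EpdSC, 10 were past 2-fold lower and 0 higher. The same entry rule applies to these counts, and shares over all genes called in bulk were not computed, so they too are a description.

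Lgr5 had 98.1 CPM in young bulge-like cells, against 0.350 CPM in young interfollicular basal-like cells, from 89 and 2 UMIs. Wif1 had 56.2 CPM in bulge-like cells and 0 UMIs in basal-like cells. The ratio was 107 when set against 3 UMIs in the basal-like sum, and its counting interval began at 83.9. Fzd2 had 208 CPM in bulge-like and 4.03 CPM in basal-like cells, and Dkk3 had 209 and 7.18 CPM in the same order. These 4 genes were thus far higher in bulge-like than in basal-like cells. In the other direction, Wnt16 had 2.20 CPM in bulge-like cells and 56.2 CPM in basal-like cells, and Rspo3 had 5.51 and 68.8 CPM. Wnt3 had 13.2 CPM in bulge-like and 79.2 CPM in basal-like cells, and Wnt3a had 2.20 and 18.4 CPM. Axin2 did not separate these classes, with 19.8 CPM in bulge-like and 20.5 CPM in basal-like cells. In aged cells 16 of 21 members passed 2-fold, 9 higher and 7 lower in bulge-like cells, against 19.5% of all genes, 11.0% higher and 8.57% lower.

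Between aged and young bulge-like cells, 4 of 20 members passed 2-fold, 3 higher and 1 lower, against 8.45% of all genes, 3.63% higher and 4.82% lower. Members with few UMIs again entered only when 1 side was high, as Sfrp2 did through the aged cells. This share and that in basal-like cells below are therefore a description. Wif1 had 178 CPM in aged and 56.2 CPM in young bulge-like cells, a ratio of 3.17 with a counting interval of 2.22 to 4.56. Sfrp2 had 23 UMIs in aged and 0 in young bulge-like cells. The ratio was 13.9 when set against 3 UMIs in the young sum, and its counting interval began at 10.4. In bulk HFSC these 2 inhibitors were also higher in both aged libraries, and passed the edgeR test only under some of the alternatives. Znrf3 had 28.0 CPM in aged and 13.2 CPM in young bulge-like cells, with an interval that included no difference, and Wnt5b was the lower one with 4 aged and 16 young UMIs, a ratio of 0.45 with an interval of 0.11 to 1.41 that also included no difference. For Wnt3a the bulge-like sums held 3 aged and 2 young UMIs and for Wnt5a 1 and 1, so an age difference in these ligands was not detectable at this depth. Between aged and young interfollicular basal-like cells, 4 of 24 members passed 2-fold with a pseudocount of 0.5 UMIs, 1 higher and 3 lower, against 11.9% of all genes, 6.20% higher and 5.74% lower. Wnt16 had 25.4 CPM in aged and 56.2 CPM in young basal-like cells. The other 2 lower members, Fzd3 and Wnt5b, had 0 aged UMIs, and 3 aged UMIs would exceed their young level, so they passed through the pseudocount alone and are not shown to be lower.

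**Figure D5:**
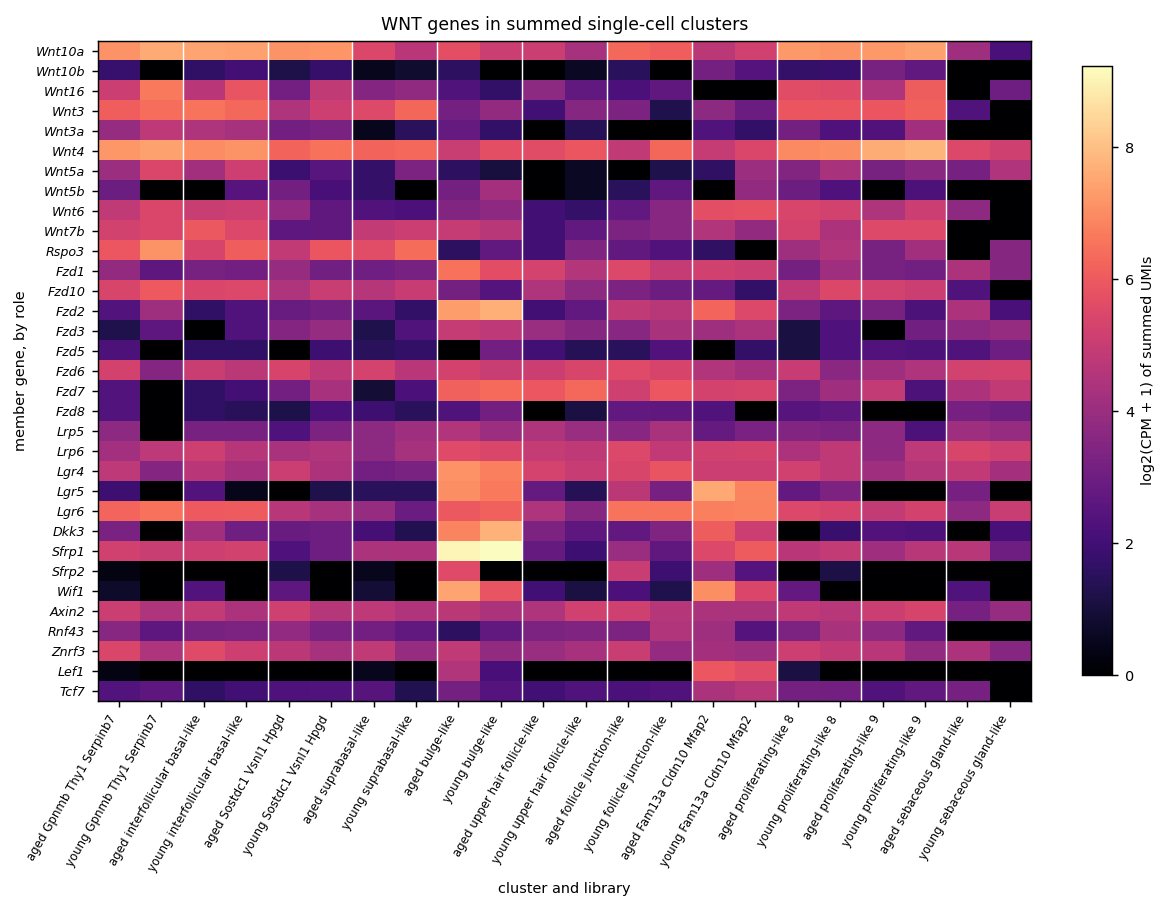
Members with UMIs in the single-cell libraries (rows) as log2(CPM + 1) in each cluster (columns), with the aged and young sum of each cluster side by side. Lgr5, Wif1, Fzd2 and Dkk3 are brightest in the bulge-like columns and those of the cluster led by Fam13a, Cldn10 and Mfap2, and Wnt16, Rspo3 and Wnt3 are dim in both.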

How the data were processed

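The authors deposited counts of reads per gene for 8 bulk RNA libraries, counts of reads in overlapping 500-base windows for 4 ATAC libraries, and 10x counts of UMIs per gene and barcode for 2 libraries; STAR, Bowtie, Cell Ranger and mm10 are named in the submitters' processing notes. The sources used here give no strand setting, annotation or tool version. CPM values were computed here from the deposited counts.

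Bulk RNA was fitted with edgeR 4.0.16 (TMM, filterByExpr, quasi-likelihood test) in R 4.3.3, with 1 term per group over all 8 libraries and Benjamini-Hochberg adjustment over 21464 genes; the common biological coefficient of variation was 0.277. DESeq2 1.42.0 was an alternative, as were other scalings, filters, a replicate block and leaving out each library. The bulk RNA fit was tested on simulated counts for aged against young HFSC only, and the ATAC and 10x steps were not tested in this way. ATAC promoters were the sum of non-overlapping windows within 1000 bases of a gene start, with a pseudocount of 0.5 and at least 20 counts over a pair. Starts came from RefSeq (GRCm38.p6) for 36 members and otherwise from the more open gene end, which lay within 1000 bases of the listed start for 76.1% of 14512 genes with 1 listed start. Cells with at least 500 genes, at most 10% mitochondrial UMIs and a minimum of UMIs were kept. That minimum was set per library, at 682 UMIs in the aged and 1049 UMIs in the young library. The kept cells were clustered with scanpy 1.11.5 (2000 variable genes, 30 components, resolution 0.6), giving 11 clusters. The labels state 4000 captured cells per sample. Doublets were not removed, and 41 aged and 17 young cells had over 3 times their library's median UMIs. Sums per cluster needed at least 20 UMIs over a pair and had no test, with 1 library per age.

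The set of genes, taken by symbol, and the lists were chosen with earlier results of these data known. Named in full were up to 12 higher and 12 lower called members per comparison that averaged 1 CPM or more where they were higher, and the 4 of smallest p where fewer than 4 were called, with up to 6 called genes of the other pathway list.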

Additional observations from a re-analysis of the deposited data

How the results depend on the processing

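The EpdSC and HFSC comparisons kept 30 to 33 members in young mice and 31 to 34 in aged mice over all alternatives, and 30 of 33 and 31 of 34 calls held in every one of 15. Calls between aged and young HFSC numbered 3 and depended on the processing: DESeq2 called 8, no filter on low counts 13, the replicate block 5, the 4 HFSC libraries alone 0, and leaving out each library 1 to 7. The interaction had 0 calls, with 3 by DESeq2, 7 without the filter and 0 to 2 when a library was left out; a fit of 4 libraries could not be made for it. Replicate numbers were shared by groups, but with 2 per group they were not taken as pairs: deviations of same-numbered libraries correlated at 0.157 in HFSC, 0.174 in EpdSC and -0.077 and -0.069 between the sorts of young and aged mice. The block changed the count of called members only for aged HFSC. Over all genes, calls between aged and young HFSC were 79 in the main fit, 359 by DESeq2 and 662 without the filter. For the interaction they were 1, 87 and 285. Of promoter counts past 2-fold, 18 in young mice became 10 with listed starts only, and 26 in aged mice became 15. Only 36 members had a listed start, so a lower count there is not by itself a lower share. With the median of all promoters at 0 the 26 became 14. For aged HFSC, 15 became 9 with a pseudocount of 5, 7 with the median at 0 and 7 with listed starts; for aged EpdSC, 1 became 2 with 500 bases each side. Of 10x counts, the 16 in aged bulge-like against basal-like cells became 8 with at least 50 UMIs and 4 with at least 1000 genes per cell. The 4 between aged and young bulge-like cells became 1 with at least 50 UMIs and 2 at higher resolution, and the 4 in basal-like cells 1 with at least 50 UMIs and 2 with members allowed in the clustering. Listed starts and the joined Gpnmb cluster were chosen after seeing the data. Signs reversed in 5 single values: the Dkk4 promoter in aged mice to -1.14 at 2000 bases each side, Wnt5b in aged against young basal-like cells to 0.50 with the Gpnmb-led cluster joined, 0.13 at higher resolution and 0.11 with members in the clustering, and Wnt6 in aged bulge-like against basal-like cells to 0.012 at lower resolution. The cause was not tested. Single ATAC and 10x libraries have counting error only, and low UMI sums limit the aged 10x comparisons.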

Other observations

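A cluster led by Fam13a, Cldn10 and Mfap2, which the markers used here did not name, held 271 aged and 89 young cells. Like bulge-like cells it had high Lgr5 and Wif1, but it had more Lef1 and Wnt6. Lgr5 had 186 CPM in aged and 116 CPM in young cells of this cluster, against 130 and 98.1 CPM in bulge-like cells. Lef1, a partner of β-catenin, had 60.1 CPM in aged and 48.9 CPM in young cells of the cluster, from 30 and 22 UMIs, and bulge-like cells had 11 aged and 3 young UMIs. Tcf7 had 10 aged and 11 young UMIs in the cluster. Wnt6 had 52.1 CPM in its aged and 53.3 CPM in its young cells, against 10.0 and 12.1 CPM in bulge-like cells. Wif1 had 132 CPM in aged and 42.2 CPM in young cells of the cluster, from 66 and 19 UMIs. Bulge-like cells had 178 CPM of Wif1 in the aged and 56.2 CPM in the young library. Wif1 was thus higher in the aged library in this cluster as well as in bulge-like cells, with 1 library per age and no test.

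Sfrp2 UMIs in the aged library were spread over several follicle clusters. The follicle junction-like cluster had 17 aged and 2 young Sfrp2 UMIs, or 31.3 CPM in aged and 2.74 CPM in young cells. Rspo3 was also found outside basal-like cells: suprabasal-like cells had 48.6 CPM in the aged and 83.5 CPM in the young library.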
